A study of Homo sapiens with 6 samples.

Results

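Expression of 40 genes of mitosis and DNA replication was followed in A673 and SK-N-MC cells, established lines of Ewing sarcoma, a cancer of the young whose driver is an EWSR1 fusion gene. The genes were taken by symbol from a list, and each was read from its brightest probe set, by mean across the 6 arrays. Values were obtained for 39 of the 40 genes, out of 18417 genes measured in all. They comprise 22 mitotic genes and 17 replication genes. The centromere histone gene CENPA has no value here, because its probe set is also assigned to SLC35F6. Of the 39 genes only BIRC5 had a second probe set. Each line received the siRNA siDKK2 against the Wnt modulator gene DKK2, an siRNA against the membrane protein gene ITM2A (siITM2A), or a control siRNA. There was 1 Affymetrix array per line and siRNA, 6 in all, so the 2 lines are the replicates of each siRNA effect. All cells were grown in the same medium with fetal bovine serum, and neither the time between transfection and harvest nor a sorting of cells is given in the labels. The labels number the ITM2A siRNA differently in the 2 lines, so whether both received the same oligonucleotide is not known.

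Cells commit to division when cyclin E and CDC25A activate their kinase partner and release E2F factors from the retinoblastoma proteins. E2F factors then drive genes that license and fire replication origins and supply nucleotides. Later, MYBL2 and FOXM1 drive genes of cyclin B, the Aurora and Polo kinases, the centromere and the spindle. The DREAM complex represses these genes in resting cells. Transcripts of both classes are high in cycling cells and low in resting ones, and they are abundant in fast-growing tumours such as Ewing sarcoma. Bulk RNA cannot tell fewer cycling cells from less transcript per cell.

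DKK2 stood at 7.73 (A673) and 6.5 (SK-N-MC) with siDKK2, against 8.64 and 8.01 with control siRNA, on the log2 scale of the arrays. ITM2A stood at 5.03 (A673) and 6.10 (SK-N-MC) with siITM2A, against 8.52 and 9.48 with control siRNA. Each target was lowest with its own siRNA in both lines, and ITM2A passed the test in limma (-3.44 ± 0.17, adjusted p = 0.000442) while DKK2 did not (-1.21 ± 0.17, adjusted p = 0.209). Ewing markers were present: 8 of 9 measured markers lay above the median level of all genes (4.04), with CD99 between 9.79 and 10.73. GLI1 was the exception (mean 2.86). The defining markers of leukocytes, epithelium, endothelium and fibroblasts lay mostly below that median by their means (10 of 12). Above it were the leukocyte gene CD68 (mean 5.1, up to 6.41 in A673) and the fibroblast gene PDGFRB (mean 5.09, up to 6.02 in SK-N-MC). The fibroblast gene DCN, counted below by its mean of 3.37, stood at 2.16 to 2.25 in A673 and 4.09 to 5.23 in SK-N-MC. The median level over all genes was 3.96 to 4.05 on every array. The number of arrays limits the precision.

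All 39 genes were above the median level of all genes, with means of 4.75 (CDC25C) to 9.19 (CCNB1). Across the 3 siRNAs the highest and lowest array of a gene differed by a median of 0.24 (A673) and 0.27 (SK-N-MC), beside 0.26 and 0.25 over all genes. The widest were the checkpoint kinase gene TTK in A673 (0.70) and the cyclin gene CCNE2 in SK-N-MC (0.89). In SK-N-MC the control siRNA array held the highest of the 3 values for 30 of the 39 genes and the lowest for 0. Over all genes that array was highest for 35.1%. In A673 the siDKK2 array was highest for 24 of the 39 genes (30.7% of all genes) and the control array lowest for 18 (26.3% of all genes).

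**Figure D1:**
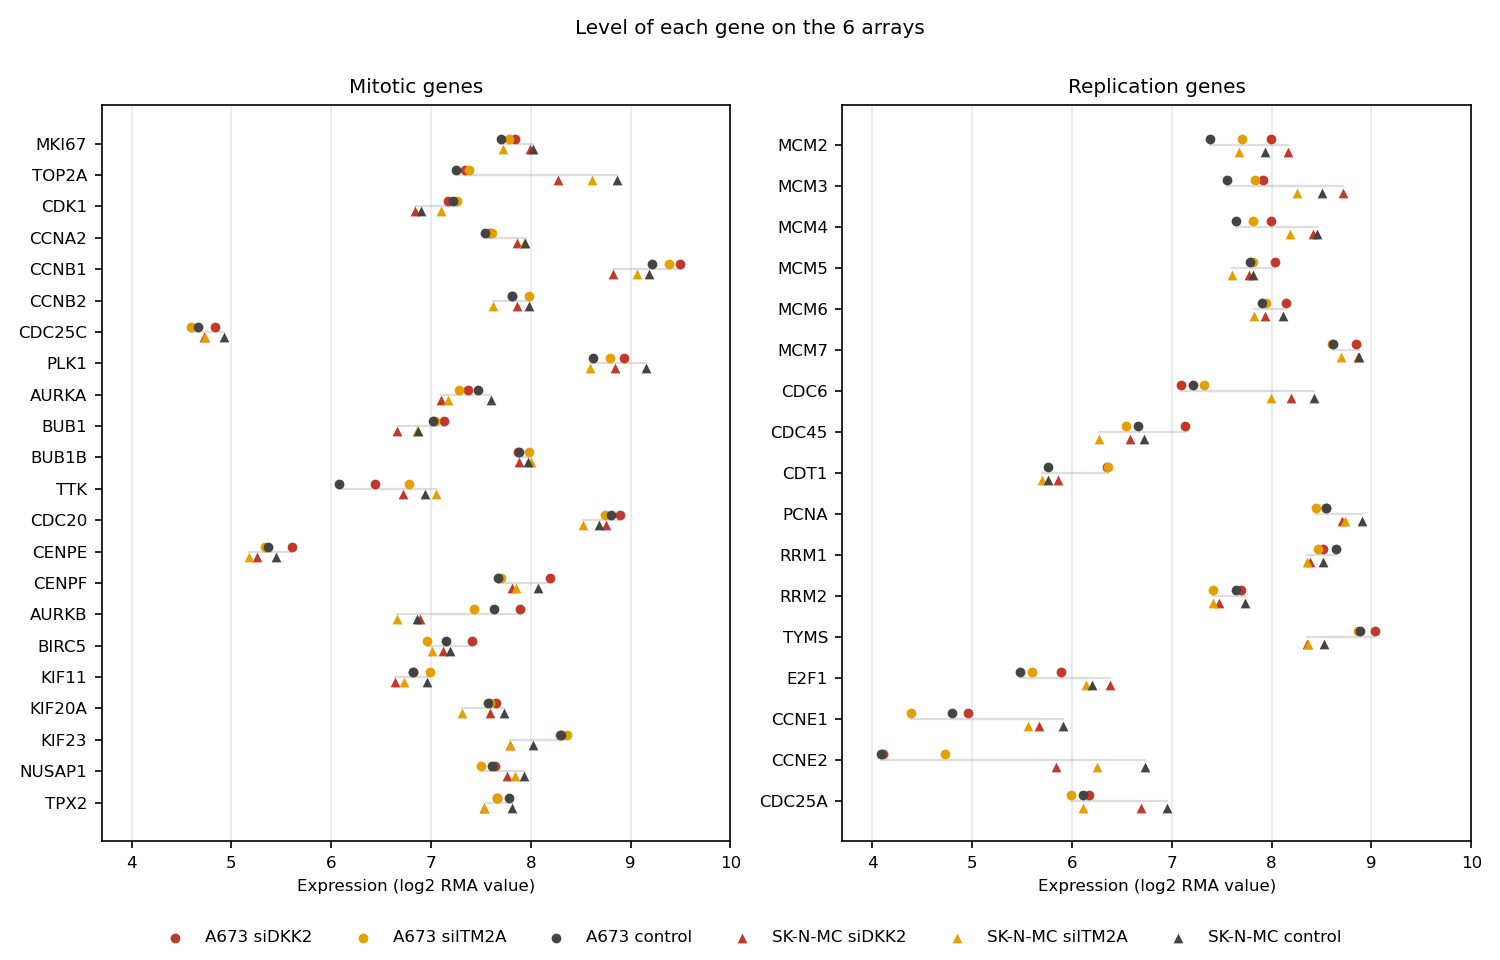
Level of each mitotic (left) and replication (right) gene on the log2 RMA scale of the arrays (x axis), with 1 point per array: circles for A673, triangles for SK-N-MC, coloured by siRNA. Most genes keep their 6 points within 1 unit. All A673 circles lie left of the SK-N-MC triangles for 10 of the 39 genes and right of them for 6. The differences to the left are largest for CCNE2, TOP2A, CCNE1 and CDC6.

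With siDKK2 against control siRNA, no mitotic or replication gene passed the threshold (limma with the line as a block, Benjamini-Hochberg over all genes, adjusted p under 0.05; lowest adjusted p = 0.531, MCM2). Over all genes 0.0109% passed. At an unadjusted p under 0.05, 1 of the 39 genes was found, beside 8.68% of all genes. By fit the differences ran from -0.44 (CCNE2) to 0.42 (MCM2), with standard errors of 0.13 to 0.24, and the 95% interval lay within 2-fold of the control for all 39. Here and below, standard errors and intervals use a spread estimated from all 6 arrays and moderated over all genes. With 2 residual and 6.28 prior degrees of freedom they rest largely on that prior. The 2 lines went apart by value. In A673 30 of the 39 genes were higher with siDKK2 than with control siRNA (76.9%, against 42.8% of all genes), and in SK-N-MC 33 were lower (84.6%, against 51.2%). The shift in SK-N-MC was not particular to these genes: Ewing markers (88.9%) and cell cycle exit genes (77.8%) were mostly lower too. So were further lists of replication (83%), mitotic (86%) and cell cycle transcription genes (85%), but not markers of other cell types (41.7%). In A673 the further replication (32 of 47) and mitotic genes (34 of 50) were mostly higher with siDKK2 too. Cell cycle transcription genes (11 of 20 higher), Ewing markers (5 of 9) and cell cycle exit genes (5 of 9) were divided there. Of the markers of other cell types 4 of 12 were higher. The median difference of replication genes was 0.22 (A673) and -0.14 (SK-N-MC), and of mitotic genes 0.09 and -0.20; over all genes it was -0.04 and -0.01. Fitted over both lines, the median was 0.03 for replication and -0.03 for mitotic genes, and with 1 array left out it ran from -0.12 to 0.20 and from -0.14 to 0.11, so neither has a settled sign. With 1 array per line and siRNA, the difference between the lines could not be tested.

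The largest positive differences with siDKK2 belonged to MCM2, CDT1, E2F1 and MCM3, and none passed the test. MCM2 to MCM7 encode the 6 subunits of the replicative helicase ring. In A673 all 6 were higher, by 0.22 to 0.61, and in SK-N-MC 2 were higher and 4 lower, within -0.18 to 0.23. MCM2 stood at 7.99 (A673) and 8.16 (SK-N-MC) with siDKK2, at 7.70 and 7.67 with siITM2A, and at 7.38 and 7.93 with control siRNA. Both siDKK2 values were the highest of their line. The fitted difference was 0.42 ± 0.16 (moderated SE from all 6 arrays, n = 2 lines, adjusted p = 0.531, 95% interval 0.05 to 0.79). MCM3 was also highest with siDKK2 in each line: it stood at 7.91 (A673) and 8.71 (SK-N-MC) with siDKK2, 7.83 and 8.25 with siITM2A, and 7.55 and 8.50 with control siRNA. CDT1, the factor that loads the ring onto origins, stood at 6.35 (A673) and 5.86 (SK-N-MC) with siDKK2, against 5.76 in both lines with control siRNA; with siITM2A it stood at 6.36 and 5.70. E2F1, which encodes the transcription factor itself, stood at 5.89 (A673) and 6.38 (SK-N-MC) with siDKK2, at 5.60 and 6.14 with siITM2A, and at 5.48 and 6.20 with control siRNA. Its difference of 0.30 ± 0.13 missed the threshold (adjusted p = 0.575).

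Few genes were on the same side of the control in both lines. With siDKK2, 6 of the 39 were higher in both (15.4%, beside 23.2% of all genes) and 9 lower in both (23.1%, beside 31.6%). CDC20, the activator of the anaphase-promoting complex, stood at 8.89 (A673) and 8.75 (SK-N-MC) with siDKK2, against 8.80 and 8.68 with control siRNA. AURKA, a kinase of centrosomes and spindle poles, stood at 7.37 and 7.10 with siDKK2, 7.28 and 7.17 with siITM2A, and 7.47 and 7.60 with control siRNA (A673, then SK-N-MC). AURKA was below its control with both siRNAs in both lines (-0.30 ± 0.14 for siDKK2 in the fit, adjusted p = 0.61; -0.31 ± 0.14 for siITM2A, adjusted p = 0.747). TPX2, the microtubule factor that activates AURKA, had 7.66 (A673) and 7.53 (SK-N-MC) with siDKK2, against 7.78 and 7.81 with control siRNA. CDC6, which recruits the helicase ring to origins, stood at 7.09 (A673) and 8.19 (SK-N-MC) with siDKK2, against 7.21 and 8.42 with control siRNA. RRM1, the large subunit of ribonucleotide reductase, had 8.51 (A673) and 8.38 (SK-N-MC) with siDKK2, against 8.64 and 8.51 with control siRNA, a difference of -0.13 in both lines. CDK1, the kinase that drives entry into mitosis, differed little with siDKK2 (-0.06 ± 0.13). It stood at 7.17 (A673) and 6.84 (SK-N-MC) with siDKK2, at 7.26 and 7.10 with siITM2A, and at 7.22 and 6.90 with control siRNA. None of these differences passed, and that of CDK1 was smaller than its standard error.

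**Figure D2:**
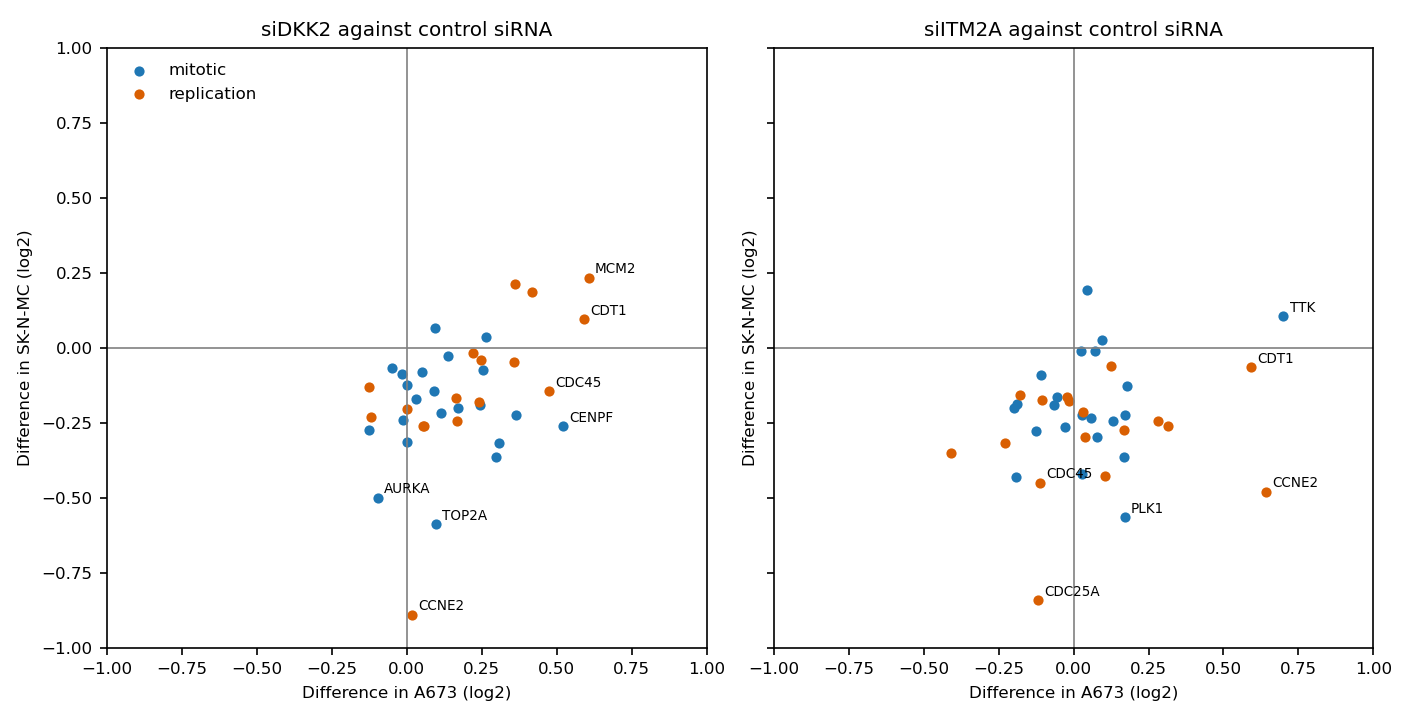
Difference of each gene from control siRNA in A673 (x axis) and SK-N-MC (y axis), both in log2 units, for siDKK2 (left) and siITM2A (right); blue points are mitotic and orange points replication genes, and genes over 0.44 from zero in either line are named. Most points lie below the horizontal zero line, 33 of 39 with siDKK2 and 36 of 39 with siITM2A, and both panels use the same 2 control arrays.

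With siITM2A against control siRNA again no gene of the 39 passed (lowest adjusted p = 0.707, CDC25A), and 0.0109% of all genes did. At an unadjusted p under 0.05 there were 3 of 39, beside 6.91% of all genes. All 39 intervals lay within 2-fold of the control. Replication genes were lower in SK-N-MC without exception (17 of 17, median -0.26, against 52.3% of all genes lower), and in A673 8 of 17 were lower (median 0.03). In SK-N-MC the further replication, mitotic and transcription lists were also mostly lower (87.2%, 80% and 85%), as were Ewing markers (77.8%). Cell cycle exit genes (55.6%) lay near the share of all genes and markers of other cell types (33.3%) under it. Mitotic genes had medians of 0.04 (A673) and -0.21 (SK-N-MC). The fitted median of each class was -0.10. Leaving out the control array of SK-N-MC turned the sign, to 0.03 for replication and 0.05 for mitotic genes. In both lines 16 of 39 were lower (41%, beside 30.7% of all genes) and 3 higher (7.69%, beside 21.2%). Since the siDKK2 and siITM2A differences share the control arrays, they are not separate results.

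Cyclin E1 and CDC25A had the lowest fitted values with siITM2A. CCNE1, the cyclin partner of CDK2 at the start of S phase, stood at 4.39 (A673) and 5.56 (SK-N-MC) with siITM2A, at 4.96 and 5.67 with siDKK2, and at 4.8 and 5.91 with control siRNA. It was lowest with siITM2A in both lines, with a difference from control of -0.38 ± 0.15 (adjusted p = 0.714). CDC25A, the phosphatase that activates CDK2, stood at 5.99 (A673) and 6.11 (SK-N-MC) with siITM2A, at 6.17 and 6.69 with siDKK2, and at 6.11 and 6.95 with control siRNA. Its difference of -0.48 ± 0.18 (adjusted p = 0.707) rests on SK-N-MC, at -0.84, beside -0.12 in A673. RRM2, the regulated subunit of ribonucleotide reductase, stood at 7.41 (A673) and 7.41 (SK-N-MC) with siITM2A, against 7.64 and 7.73 with control siRNA. The passenger complex genes AURKB and BIRC5 (survivin), whose proteins correct faulty chromosome attachment, differed evenly. AURKB differed by -0.20 in both lines and BIRC5 by -0.19 in both. TTK, the kinase that starts the spindle checkpoint, went the other way: it stood at 6.78 (A673) and 7.05 (SK-N-MC) with siITM2A, at 6.44 and 6.72 with siDKK2, and at 6.08 and 6.94 with control siRNA. Its difference was 0.40 ± 0.17 (adjusted p = 0.721), of which A673 gave 0.70 and SK-N-MC 0.11. The other genes higher in both lines were CDK1 (0.12 ± 0.13) and the checkpoint gene BUB1B (0.06 ± 0.13).

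In siDKK2 against siITM2A the control arrays enter only through the shared estimate of spread. Here most replication genes had the same sign in the 2 lines: 12 of 17 were higher with siDKK2 in both lines and 1, CCNE2, was lower in both. The 47 further replication genes of the pathway list were more evenly divided, with 18 higher and 11 lower in both lines and a fitted median of 0.05. Over all genes 27.4% were higher in both and 27.5% lower in both. Mitotic genes were split, 7 of 22 higher in both and 7 lower in both. The median difference of replication genes was 0.19 (A673) and 0.16 (SK-N-MC), and of mitotic genes 0.07 and -0.02, beside 0.00 in each line over all genes. No gene passed (lowest adjusted p = 0.54, CDC45), 3 of 39 had an unadjusted p under 0.05 (8.32% of all genes), and 0.0163% of all genes passed. The 95% interval lay within 2-fold for 38 of 39, the exception being CCNE2 (-1.07 to 0.04).

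All 6 MCM subunits were higher with siDKK2 than with siITM2A in both lines, by 0.08 to 0.29 in A673 and 0.12 to 0.49 in SK-N-MC. MCM4 stood at 7.99 (A673) and 8.41 (SK-N-MC) with siDKK2, against 7.81 and 8.18 with siITM2A. CDC45, which joins the ring to form the active helicase, stood at 7.13 (A673) and 6.58 (SK-N-MC) with siDKK2, against 6.54 and 6.27 with siITM2A; with control siRNA it stood at 6.66 and 6.72. Each line had the higher value with siDKK2, and the fitted difference of 0.45 ± 0.17 missed the threshold (adjusted p = 0.54). E2F1 differed by 0.29 and 0.25, and MCM2 by 0.39 ± 0.16 in the fit. CCNE2, the second cyclin E gene, ran against this: it stood at 4.11 (A673) and 5.84 (SK-N-MC) with siDKK2, at 4.73 and 6.25 with siITM2A, and at 4.09 and 6.73 with control siRNA. The other cyclin E gene, CCNE1, was higher with siDKK2 in both lines, by 0.58 (A673) and 0.11 (SK-N-MC). The difference of CCNE2 between the knock-downs was -0.52 ± 0.24 (adjusted p = 0.615), of the opposite sign to CCNE1 in each line.

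Among mitotic genes, AURKB and BIRC5 of the passenger complex had higher values with siDKK2, and the checkpoint genes TTK and BUB1B lower ones. The other checkpoint genes were CDC20, higher in both lines (0.19 ± 0.13), and BUB1, split between them (-0.06 ± 0.14). AURKB stood at 7.89 (A673) and 6.89 (SK-N-MC) with siDKK2, against 7.43 and 6.66 with siITM2A and 7.63 and 6.86 with control siRNA. It differed by 0.35 ± 0.13 between the knock-downs (adjusted p = 0.541). BIRC5 stood at 7.41 (A673) and 7.12 (SK-N-MC) with siDKK2, against 6.96 and 7.01 with siITM2A and 7.15 and 7.19 with control siRNA. TTK differed by -0.34 (A673) and -0.33 (SK-N-MC), and BUB1B by -0.11 and -0.12. BUB1B stood at 7.87 (A673) and 7.88 (SK-N-MC) with siDKK2, against 7.98 and 8.0 with siITM2A and 7.88 and 7.97 with control siRNA. The kinesin gene KIF11, whose protein pushes spindle poles apart, stood at 6.82 and 6.64 with siDKK2, against 6.99 and 6.73 with siITM2A (A673, then SK-N-MC). The fitted difference of CDK1 was -0.18 ± 0.13. None of these passed over all genes.

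**Figure D3:**
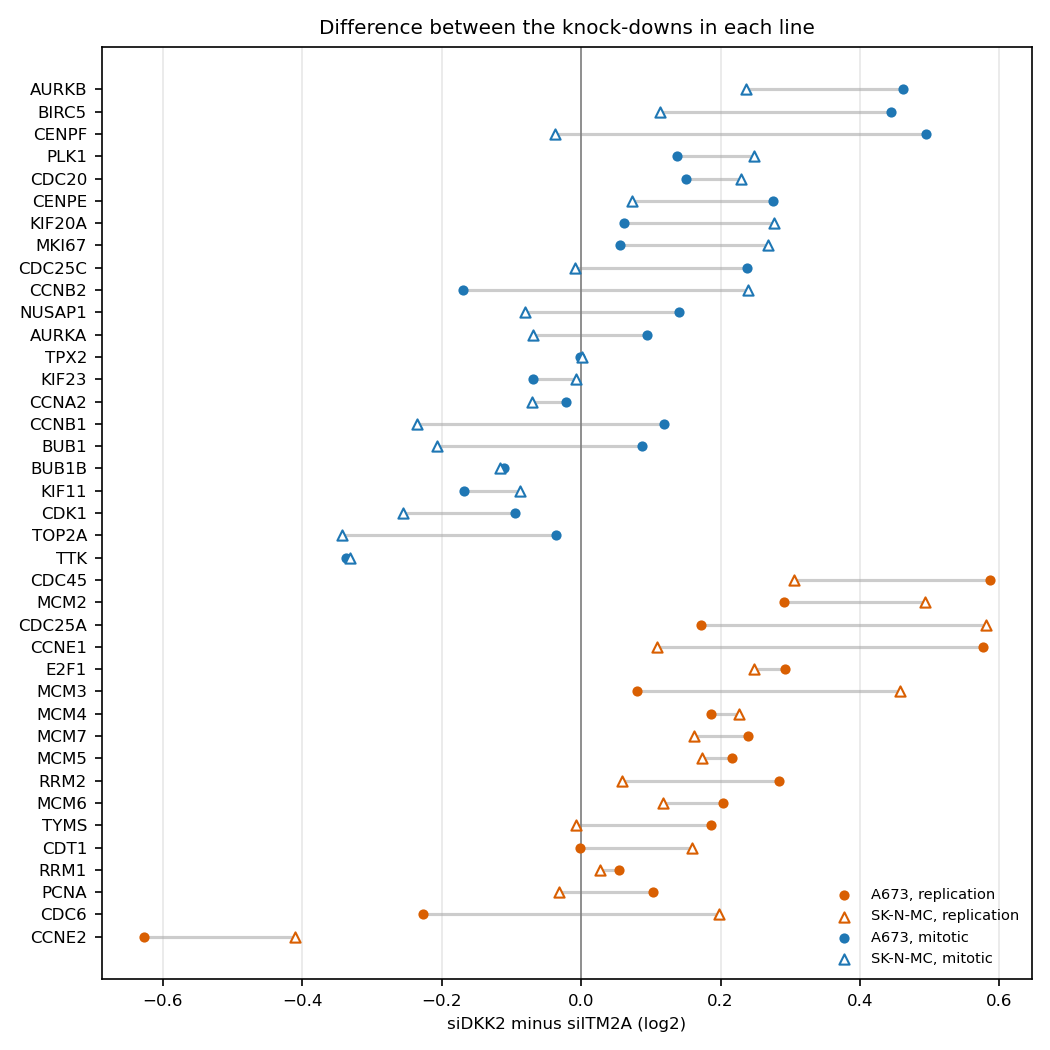
siDKK2 minus siITM2A for each gene (x axis, log2 units), with filled circles for A673 and open triangles for SK-N-MC; blue genes are mitotic (upper block), orange genes replication (lower block). Both symbols lie right of zero for 12 of 17 replication genes, while the mitotic genes spread to both sides.

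Between the lines the genes differed more. A673 against SK-N-MC, with the siRNA as a block, gave 13 of 39 genes past the threshold (33.3%, beside 28.5% of all genes). Of these, 10 were lower in A673 (25.6%, beside 14.7% of all genes) and 3 higher (7.69%, beside 13.8%). Replication genes made up most of the lower ones: 7 of 17 were lower and 1 higher, against 3 lower and 2 higher of 22 mitotic genes. The 3 arrays of each line did not overlap for 16 of 39 genes (41%, beside 38.9% of all genes). The median difference was -0.23 for replication genes, 0.06 for mitotic genes and -0.02 over all genes. Without either control array it was -0.08 for replication and 0.15 for mitotic genes, and without either siDKK2 or either siITM2A array -0.26 and 0.01. The p-values measure how evenly the lines differed across the 3 siRNAs; the labels name no repeat cultures.

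All 4 G1/S regulators were lower in A673. CCNE2 (probe set 8151871) averaged 4.31 ± 0.37 (A673) and 6.27 ± 0.44 (SK-N-MC) (SD, n = 3 arrays), a 3.89-fold lower level in A673 (-1.96 ± 0.20, adjusted p = 1.39e-04). The gap was -1.73 with siDKK2, -1.51 with siITM2A and -2.63 with control siRNA, so the lines stayed apart under every siRNA. CCNE1 (probe set 8027402) averaged 4.71 ± 0.30 (A673) and 5.72 ± 0.18 (SK-N-MC) and was lower in A673 by 1.0 on the log2 scale (-1.0 ± 0.13, adjusted p = 4.33e-04). E2F1 (probe set 8065710) averaged 5.66 ± 0.21 (A673) and 6.24 ± 0.13 (SK-N-MC) (-0.58 ± 0.11, adjusted p = 0.00374). CDC25A was lower too (-0.50 ± 0.15, adjusted p = 0.0329), though its arrays overlapped between the lines, since SK-N-MC cells with siITM2A had 6.11 and A673 cells 5.99 to 6.17. Its call was lost without either siDKK2 array (-0.48, adjusted p = 0.106) or either control array (-0.32, adjusted p = 0.167), and those of CCNE2, CCNE1 and E2F1 held without any 1 array.

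Licensing genes divided. CDC6 (probe set 8007071) averaged 7.21 ± 0.11 (A673) and 8.20 ± 0.21 (SK-N-MC), 1.99-fold lower in A673 (-0.99 ± 0.13, adjusted p = 5.54e-04). MCM3 averaged 7.76 ± 0.19 (A673) and 8.49 ± 0.23 (SK-N-MC) (-0.73 ± 0.13, adjusted p = 0.00284), and MCM4 7.81 ± 0.18 and 8.35 ± 0.15 (-0.54 ± 0.12, adjusted p = 0.0111). MCM4 stood at 7.64 (A673) and 8.45 (SK-N-MC) with control siRNA, the widest of its 3 gaps, and without either control array its call was lost (-0.40, adjusted p = 0.0618). The other 4 subunits of the same ring did not pass. MCM6 had one of the smallest differences of all 39 genes: 8.14, 7.94 and 7.90 in A673 with siDKK2, siITM2A and control siRNA, against 7.93, 7.82 and 8.11 in SK-N-MC with the same siRNAs (0.04 ± 0.12). CDC45 and CDT1 had positive differences that did not pass (0.25 ± 0.14 and 0.39 ± 0.14), and CDT1 passed without either control array (0.58, adjusted p = 0.0122). TYMS, the enzyme that makes thymidylate, was higher in A673: it stood at 9.04 with siDKK2, 8.86 with siITM2A and 8.88 with control siRNA in A673, against 8.35, 8.36 and 8.52 in SK-N-MC. Its difference of 0.51 ± 0.11 (adjusted p = 0.00876) was lost as a call without either siDKK2 array (0.43, adjusted p = 0.0599) or either siITM2A array (0.52, adjusted p = 0.0547).

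Of the mitotic genes, TOP2A, which untangles chromosomes, was lower and the Aurora kinase gene AURKB higher in A673. TOP2A (probe set 8014974) stood at 7.34 with siDKK2, 7.38 with siITM2A and 7.25 with control siRNA in A673, against 8.27, 8.61 and 8.86 in SK-N-MC. It was 2.39-fold lower in A673 (-1.26 ± 0.14, adjusted p = 2.48e-04). AURKB (probe set 8012403) averaged 7.65 ± 0.23 (A673) and 6.80 ± 0.13 (SK-N-MC), 1.80-fold higher in A673 (0.85 ± 0.11, adjusted p = 4.97e-04). KIF23, the kinesin of the cytokinetic midzone, stood at 8.29, 8.36 and 8.30 in A673 with siDKK2, siITM2A and control siRNA, against 7.79, 7.79 and 8.02 in SK-N-MC (0.45 ± 0.11, adjusted p = 0.0158). CCNA2 stood at 7.59, 7.61 and 7.54 in A673 with siDKK2, siITM2A and control siRNA, against 7.86, 7.93 and 7.94 in SK-N-MC. TTK (-0.47 ± 0.14, adjusted p = 0.0374; its arrays overlapped between the lines) and the cyclin A gene CCNA2 (-0.33 ± 0.10, adjusted p = 0.0437) were lower in A673. The calls of TOP2A and AURKB held without any 1 array, while CCNA2 lost its call whichever array was left out (adjusted p = 0.102 to 0.16). KIF23 lost it without either siDKK2 array (adjusted p = 0.0751) or either siITM2A array (adjusted p = 0.109), and TTK without either siITM2A array (adjusted p = 0.0762) or either control array (-0.27, adjusted p = 0.201). Cyclin B1 gene CCNB1 had a higher value in A673 (0.34 ± 0.14) that passed without either control array (0.50, adjusted p = 0.0317). BUB1B had one of the smallest differences of the 39 (-0.04 ± 0.10), and MKI67, the proliferation marker, differed by -0.13 ± 0.12 (adjusted p = 0.484). The 17 mitotic genes that did not pass differed by -0.26 (NUSAP1) to 0.34 (CCNB1).

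**Figure D4:**
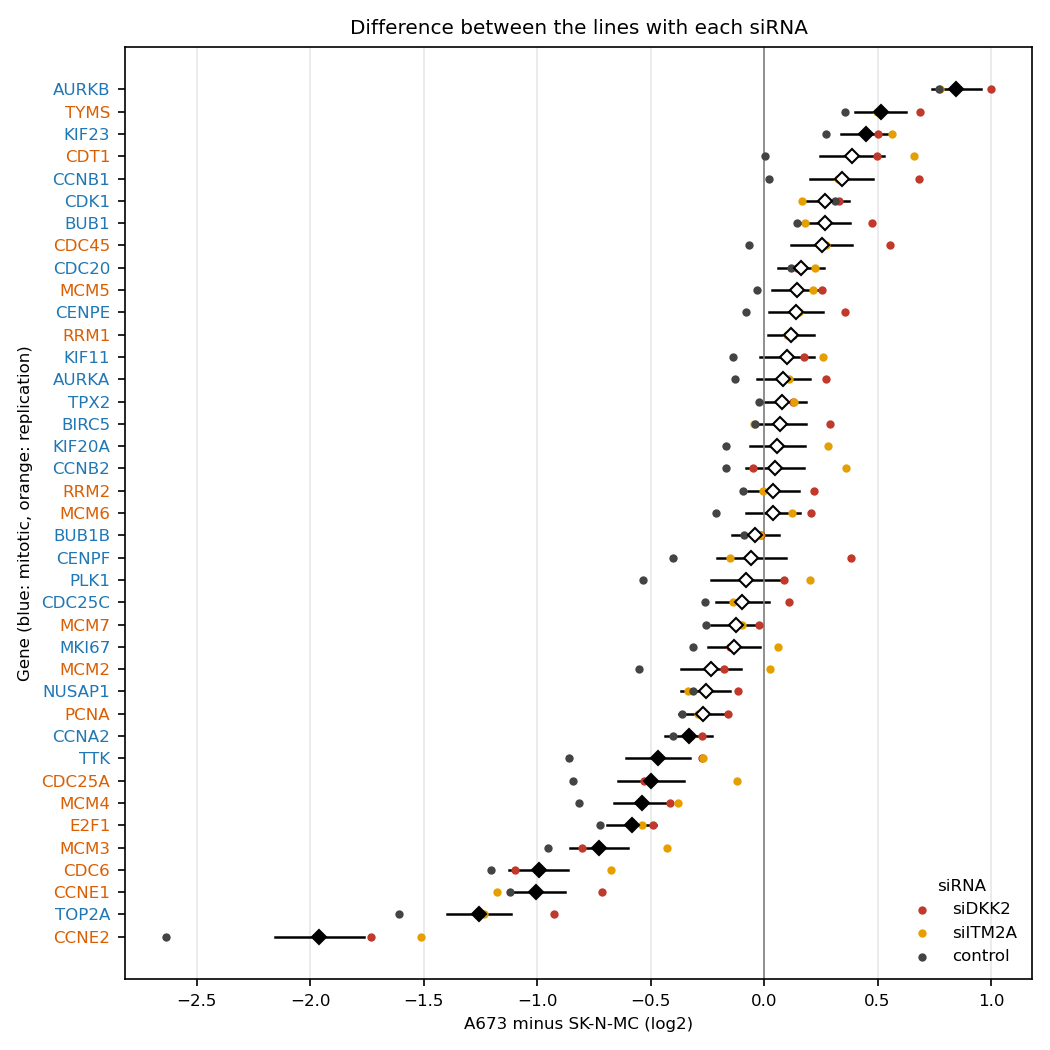
A673 minus SK-N-MC for each gene (x axis, log2 units), with coloured points for the difference under each siRNA, and a diamond with its standard error for the fitted difference; filled diamonds passed the threshold. The 10 filled diamonds of lower genes sit left of zero, from CCNE2 at -1.96 to CCNA2 at -0.33, and 3 sit right of it, AURKB, TYMS and KIF23.

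Promoter words differed between the 2 classes, which were chosen by gene role and not by sequence. RefSeq windows (GRCh38.p14, 250 bases before to 50 after the start, 300 in all) were found for 32 of the 39 genes. Each was searched on both strands for E2F words (TTTCCCGC, TTTGGCGC, TTTCGCGC or TTTGCCGC), for the cell cycle homology region of mitotic promoters (CHR, TTTGAA) and for the CCAAT box. An E2F word was found in 10 of 14 replication windows (71.4%) and 2 of 18 mitotic windows (11.1%), beside 3.33% of all 27305 promoters. A CHR word was found in 11 of 18 mitotic windows (61.1%) and 1 of 14 replication windows (7.14%), beside 15.4% of all promoters. CCAAT was frequent in both, in 10 of 14 and 15 of 18, beside 35.7% of all. These matches are descriptions of letters, not of bound sites. The 6 windows printed here belong to genes that passed between the lines and hold the word of their class: replication genes lower in A673 with an E2F word, then mitotic genes with CHR. Capitals mark E2F, CHR and CCAAT matches on either strand, none of which overlap.
CDC6 (chr17:40287629-40287928, plus strand): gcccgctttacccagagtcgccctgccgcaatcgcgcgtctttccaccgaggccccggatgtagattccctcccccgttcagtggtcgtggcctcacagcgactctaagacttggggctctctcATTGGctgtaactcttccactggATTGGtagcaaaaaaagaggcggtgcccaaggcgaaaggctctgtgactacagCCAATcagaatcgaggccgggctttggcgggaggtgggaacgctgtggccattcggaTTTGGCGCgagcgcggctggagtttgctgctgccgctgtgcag
MCM3 (chr6:52284693-52284992, minus strand): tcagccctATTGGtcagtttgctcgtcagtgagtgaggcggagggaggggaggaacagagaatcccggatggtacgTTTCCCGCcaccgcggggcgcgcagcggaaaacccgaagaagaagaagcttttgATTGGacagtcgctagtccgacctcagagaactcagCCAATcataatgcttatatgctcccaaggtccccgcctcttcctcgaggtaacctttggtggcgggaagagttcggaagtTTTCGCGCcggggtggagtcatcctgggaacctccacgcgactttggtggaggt
E2F1 (chr20:33686336-33686635, minus strand): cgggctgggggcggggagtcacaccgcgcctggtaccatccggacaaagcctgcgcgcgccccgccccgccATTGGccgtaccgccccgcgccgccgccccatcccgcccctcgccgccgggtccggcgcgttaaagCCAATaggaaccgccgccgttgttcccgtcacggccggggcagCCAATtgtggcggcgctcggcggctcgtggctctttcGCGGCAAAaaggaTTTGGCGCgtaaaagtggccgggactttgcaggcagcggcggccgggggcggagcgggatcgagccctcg
CDC25A (chr3:48188368-48188667, minus strand): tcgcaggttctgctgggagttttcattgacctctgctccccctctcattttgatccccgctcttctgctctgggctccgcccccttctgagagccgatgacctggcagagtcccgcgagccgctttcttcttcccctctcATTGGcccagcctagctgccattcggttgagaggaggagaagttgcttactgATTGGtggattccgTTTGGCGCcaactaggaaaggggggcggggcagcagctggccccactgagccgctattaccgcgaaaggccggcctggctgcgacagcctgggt
TOP2A (chr17:40417847-40418146, minus strand): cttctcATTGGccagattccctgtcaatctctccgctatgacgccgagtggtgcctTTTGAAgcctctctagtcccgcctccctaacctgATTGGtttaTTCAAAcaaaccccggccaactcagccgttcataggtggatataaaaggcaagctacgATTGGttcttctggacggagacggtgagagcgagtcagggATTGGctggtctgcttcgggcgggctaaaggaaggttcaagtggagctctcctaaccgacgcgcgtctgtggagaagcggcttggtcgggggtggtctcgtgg
KIF23 (chr15:69414099-69414398, plus strand): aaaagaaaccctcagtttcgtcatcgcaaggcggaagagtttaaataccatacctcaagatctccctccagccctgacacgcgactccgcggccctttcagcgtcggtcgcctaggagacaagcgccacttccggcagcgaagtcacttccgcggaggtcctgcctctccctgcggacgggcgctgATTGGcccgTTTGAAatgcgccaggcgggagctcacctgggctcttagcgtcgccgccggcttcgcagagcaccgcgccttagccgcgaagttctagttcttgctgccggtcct
The E2F1 and MCM3 windows hold 2 E2F words each and those of CDC6 and CDC25A 1 each, while TOP2A has 2 CHR words and KIF23 has 1. Both directions occurred with the same word: TOP2A was lower and KIF23 higher in A673, both with CHR, and TYMS was higher in A673 with 1 E2F word in its window. The window of CCNE1, 2.0-fold lower in A673, holds none of the 3 motifs. Those of the mitotic genes AURKB, higher in A673, and CCNA2, lower, hold a CCAAT box but no CHR word. For CCNE2, MCM4 and TTK, which also passed between the lines, no window was found.

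Other genes of the same pathways were read from lists of 47 further replication genes, 50 mitotic genes and 20 cell cycle transcription factors and pocket proteins. With siDKK2, with siITM2A and between the 2 knock-downs, 0 genes of these lists passed in limma. At an unadjusted p under 0.05 there were 6, 6 and 3 genes of the lists with siDKK2, 2 of each list with siITM2A, and 10, 4 and 5 between the knock-downs. Over all genes these shares were 8.68%, 6.91% and 8.32%. With siDKK2 the counts of all the lists lay above that share. With siITM2A 2 of 47 and 2 of 50 lay below it and 2 of 20 above it. Between the knock-downs 10 of 47 and 5 of 20 lay above it and 4 of 50 near it. These p-values are unadjusted and the genes share their arrays, so the counts are descriptions. Ranked by the smaller of the 2 lines' differences, the leading genes with siDKK2 were UBE2S, an E2 enzyme of the anaphase-promoting complex (0.47 ± 0.14, adjusted p = 0.432), the CDK-binding subunit gene CKS2 (0.33 ± 0.13), the helicase subunit gene GINS4 (-0.44 ± 0.13) and the transcription factor gene MYBL1 (-0.41 ± 0.13). With siITM2A they were CKS2 (0.44 ± 0.13), UBE2S (0.24 ± 0.14), the kinase gene PBK (-0.49 ± 0.13) and the pocket protein gene RBL2 (-0.40 ± 0.13). Between the knock-downs the helicase subunit gene GINS2 was the most shifted: it stood at 7.0 (A673) and 5.62 (SK-N-MC) with siDKK2, against 6.37 and 4.73 with siITM2A (0.76 ± 0.15, adjusted p = 0.283). RBL2 (0.52 ± 0.13), MAD2L1 of the spindle checkpoint (-0.57 ± 0.16) and LIN9 of the DREAM complex (-0.40 ± 0.14) followed, none past the threshold.

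Between the lines, 8 of the 47 replication genes were higher in A673 and 8 lower, 12 and 8 of the 50 mitotic genes, and 2 and 8 of the 20 transcription genes, beside 13.8% higher and 14.7% lower over all genes. The 6 with the largest differences were all higher in A673. MCM10, which activates the helicase, averaged 7.35 ± 0.09 (A673) and 5.89 ± 0.16 (SK-N-MC) (2.76-fold, adjusted p = 5.29e-05). GINS2 averaged 6.65 ± 0.32 (A673) and 5.27 ± 0.47 (SK-N-MC) (2.61-fold, adjusted p = 7.23e-05), and ORC6 of the origin recognition complex 7.27 ± 0.19 and 5.95 ± 0.23 (2.49-fold, adjusted p = 9.18e-05). The replication checkpoint kinase gene CHEK1 was 2.38-fold higher in A673, the spindle gene HMMR 2.44-fold and the kinesin gene KIF18A 2.29-fold. Within origin licensing and firing, A673 had higher MCM10, GINS2 and ORC6 and lower CDC6, MCM3 and MCM4. TFDP1, which encodes the dimer partner of E2F factors and was named after its value was seen, was 2.01-fold lower in A673 (-1.01 ± 0.10, adjusted p = 1.58e-04).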

How the data were processed

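RNA from 6 cell cultures was hybridised to Affymetrix whole-transcript arrays, 1 per line and siRNA. The deposited values are log2 signals per probe set, made by the authors with RMA in Affymetrix Expression Console, per the submitters' processing notes; the log2 scale was read from the values (1.02 to 13.4), and neither the software version nor the build is given in the sources used here. RMA equalises arrays, so a change shared by most genes would not be seen.

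Of 33297 probe sets, 19460 had 1 gene symbol in the platform annotation, 1754 several and 12083 none; those with 1 symbol gave 18417 genes, each read from its probe set with the highest mean. The members and lists were chosen with earlier results of these data known. limma 3.58.1 (R 4.3.3) was fitted to all genes and 6 arrays with siRNA and line as terms (2 residual and 6.28 prior degrees of freedom), and p-values were adjusted over all genes by Benjamini-Hochberg at 0.05. The fit was run on simulated data as a check of the code, and no result here rests on it. Arrays are paired by cell line; their deviations from the siRNA means correlated at 0.85 to 0.87. Replicates are cell lines, so p-values measure the spread between lines and siRNAs and not between cultures.

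Genes named in a siRNA comparison are up to 5 higher and 5 lower in both lines, ranked by the smaller difference. Between lines they are those past the threshold, up to 12, and the 2 smallest differences. Others named were chosen after their values were seen. Alternatives were leaving out each array, no line block, the mean of all probe sets, a filter on dim genes, shifted array medians, a trended robust prior and only the arrays compared.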

Additional observations from a re-analysis of the deposited data

Results flagged for a closer look

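Against control siRNA the lines had opposite signs, a difference that was not tested since each line has 1 array per siRNA. With siDKK2 the median difference of mitotic genes was 0.09 in A673, beside -0.20 in SK-N-MC, and that of replication genes 0.22, beside -0.14. With siITM2A the median of mitotic genes was 0.04 in A673, beside -0.21 in SK-N-MC, and that of replication genes 0.03, beside -0.26. Single genes that differed from control by at least 0.3 in each line with opposite signs were PLK1 with siDKK2 (0.31 in A673, -0.32 in SK-N-MC) and CCNE2 with siITM2A (0.64 in A673, -0.48 in SK-N-MC). Both siRNAs share the control array of each line.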

How the results depend on the processing

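No mitotic or replication gene passed in any siRNA comparison under any alternative run. Between the lines 13 of 39 genes passed (33.3%, beside 28.5% of all genes). With each array left out in turn 9 to 11 of the 39 passed, beside 20.2% to 24.9% of all genes. Leaving out either array of an siRNA gave the same result, since the siRNA is a block. There was thus 1 such check per siRNA, with 1 residual degree of freedom. In each of them 7 of the 13 held (CCNE2, TOP2A, CCNE1, CDC6, MCM3, E2F1 and AURKB). Without the replicate block 11 of the 39 passed between the lines, beside 26.3% of all genes. TTK (adjusted p = 0.0817) and CDC25A (adjusted p = 0.09) were then lost in limma, and 0 passed in each siRNA comparison. Medians over the genes depended on single arrays, and 5 of the 8 took both signs. With each array left out, the fitted median of siDKK2 against control ran from -0.14 to 0.11 for mitotic genes (-0.03 with all arrays) and from -0.12 to 0.20 for replication genes (0.03). That of siITM2A against control ran from -0.25 to 0.05 for mitotic genes and from -0.22 to 0.03 for replication genes (-0.10 for each with all arrays), above zero without the SK-N-MC control array. That of siDKK2 against siITM2A ran from -0.08 to 0.14 for mitotic genes (0.02) and from 0.10 to 0.28 for replication genes (0.20), and was 0.23 for replication genes with arrays shifted to one median. Between lines the median ran from 0.01 to 0.15 for mitotic genes (0.06) and from -0.26 to -0.08 for replication genes (-0.23); the cause was not tested. No single gene called between the lines changed sign under the alternatives run. Over all genes, 2 passed with siDKK2 (0 to 60 under the alternatives), 2 with siITM2A (0 to 4) and 3 between the knock-downs (0 to 50). Standard errors of 0.13 to 0.24 limit the size of siRNA difference that can be seen.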

Other observations

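Genes of cell cycle exit and the p53 response also differed between the lines. CDKN1A, the inhibitor of cyclin-dependent kinases, stood at 5.68, 5.81 and 5.63 in A673 with siDKK2, siITM2A and control siRNA, against 3.7, 4.21 and 3.96 in SK-N-MC (1.75 ± 0.12, limma). GADD45A was higher in A673 as well (1.47 ± 0.12), while SESN1 (-1.60 ± 0.14), CCNG2 (-0.98 ± 0.12), CCNG1 (-0.48 ± 0.14) and MDM2 (-0.38 ± 0.12) were lower. Of the 9 genes measured on this list, 2 were thus higher and 4 lower, where 13.8% and 14.7% of all genes were. In the siRNA comparisons 0 passed. SESN1 stood at 4.03 (A673) and 5.34 (SK-N-MC) with siDKK2, against 4.90 and 6.4 with siITM2A, a difference of -0.97 ± 0.17 that did not pass (adjusted p = 0.25). The second probe set of BIRC5 had a mean of 2.84, beside 7.14 for the one used. It stood at 2.94 (A673) and 2.84 (SK-N-MC) with siITM2A, against 2.52 and 2.68 with control siRNA. That direction is opposite to the probe set used, at a level below the median of all genes.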
